A study of Mus musculus with 3 samples.

Results

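The 8 genes described here, *Vwf*, *F8*, *F3*, *Tfpi*, *Thbd*, *Procr*, *Plat*, and *Plau*, form and dissolve blood clots. They were taken by symbol from the 28692 genes counted in scRNA-Seq of mouse lung, and each was found once. The libraries came from whole lungs of 3 wild-type C57BL/6 mice, numbered 2, 3, and 4, that breathed room air from postnatal day 1 and were studied at P14. There was 1 condition, so no treatment was compared. The comparisons are between cell types, and the replicates are the mice, not the cells.

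A clot begins when tissue factor, the product of *F3*, meets factor VII of the blood. Cells outside the vessel lining carry tissue factor, while the resting lining itself normally lacks it. Von Willebrand factor (*Vwf*) is stored in ECs and in platelets, binds platelets to injured walls, and carries factor VIII (*F8*), a cofactor that speeds the making of thrombin. ECs also restrain clotting. Tissue factor pathway inhibitor (*Tfpi*) blocks the tissue factor complex, thrombomodulin (*Thbd*) turns thrombin toward the activation of protein C, and the endothelial protein C receptor (*Procr*) holds protein C at the cell surface for that step. Tissue plasminogen activator (*Plat*) and urokinase (*Plau*) make plasmin, which dissolves fibrin.

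Transcripts were counted by unique molecular identifiers (UMIs), tags that mark each captured molecule before amplification. The 3 libraries held 9644 cells with 22476491 to 25192427 UMIs each, and 7642 cells passed the filters. They comprised 962 ECs, 1306 epithelial, 1538 stromal, and 3055 immune cells, and 781 cells in clusters left unnamed. Levels are UMIs of a gene per 1e6 UMIs (CPM) over the cells of 1 type in 1 mouse, and errors are the SD over the 3 mice unless given as SE. A level is compared between cell types within a gene and never between genes, since UMIs count 3′ ends and not length. Cell types were rebuilt from clusters and named as "-like" from markers, and the 8 genes and 38 further clotting genes were kept out of the clustering. The clusters still rest on other genes of the same cells, so p-values between them are not independent of the clustering. The ECs held 164 arterial-like, 104 venous-like, 167 *Car4*-type capillary, and 435 *Aplnr*-type capillary cells, 23 cells led by *Ccl21a* and *Prox1*, and 69 unnamed cells.

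*F3* lies on chromosome 3 (121723537-121735048, + strand, GRCm38), *Vwf* on chromosome 6 (125546774-125686679, + strand), and *Plat* on chromosome 8 (22757727-22782844, + strand). Chromosome 2 holds 3 of the genes, *Tfpi* (84432855-84476775, - strand), *Thbd* (148404466-148408188, - strand), and *Procr* (155751117-155755471, + strand). *Plau* lies on chromosome 14 (20836660-20843385, + strand) and *F8* on chromosome X (75172715-75382615, - strand). The span of *F8* holds or meets 3 other annotated genes that share none of its exon bases, and no other member overlaps a gene.

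The bases just before the start of *F3*, *Procr*, and *Tfpi* are shown as examples of unlike patterns. *F3* lay outside the ECs, *Procr* was highest in venous-like ECs, and *Tfpi* lay in both endothelium and stroma. These examples were taken from the 4 of the 8 genes that the RefSeq promoter table (GRCm38.p6) matched. The stretches are 250, 150, and 234 bases long. Each sequence runs 5′ to 3′ on the gene's strand and stops before the annotated gene. Capitals mark matches to TATAAA (the TATA box), AGGAAG (a core that ETS proteins bind), CCACCC (a core of Krüppel-like factors), or TGANTCA (an AP-1 core) on either strand, and no matches overlap.
*F3*, chr3:121723287-121723536 (+ strand): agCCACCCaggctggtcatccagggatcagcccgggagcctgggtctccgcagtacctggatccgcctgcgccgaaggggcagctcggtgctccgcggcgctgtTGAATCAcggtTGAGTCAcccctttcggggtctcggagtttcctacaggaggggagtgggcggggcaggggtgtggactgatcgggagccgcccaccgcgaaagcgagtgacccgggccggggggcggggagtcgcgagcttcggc
*Procr*, chr2:155750967-155751116 (+ strand): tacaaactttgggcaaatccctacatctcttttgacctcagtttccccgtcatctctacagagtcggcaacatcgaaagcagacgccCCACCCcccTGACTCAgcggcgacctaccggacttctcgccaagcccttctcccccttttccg
*Tfpi*, chr2:84476776-84477009 (- strand): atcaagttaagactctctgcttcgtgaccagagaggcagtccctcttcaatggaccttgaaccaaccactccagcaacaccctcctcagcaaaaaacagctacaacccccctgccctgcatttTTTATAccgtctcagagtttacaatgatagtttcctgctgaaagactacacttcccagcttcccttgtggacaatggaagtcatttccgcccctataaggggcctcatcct

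The *F3* stretch held 2 matches to TGANTCA and 1 to CCACCC. The *Procr* stretch held 1 match to each of these motifs. Among 32851 promoter windows of 250 bases, longer than the *Procr* and *Tfpi* stretches, TGANTCA was found in 6.75% and CCACCC in 28.1%. The *Tfpi* stretch held 1 match to TATAAA on the opposite strand, a motif found in 12.4% of the windows. A second *Tfpi* entry, inside the annotated gene and not printed, held 2 matches to AGGAAG on the opposite strand, a motif found in 29.5%, and none to TATAAA. The GC content was 70.0% for *F3*, 56.0% for *Procr*, and 48.7% for *Tfpi*, against a median of 52.4% over all 250-base windows. A match is a run of letters and was not tested as a binding site.

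The genes divided by where their UMIs lay. ECs held 97.7% ± 0.26 of the 14940 *Vwf* UMIs, 86.7% ± 3.06 of the 313 *Procr* UMIs, and 76.0% ± 2.16 of the 11965 *Thbd* UMIs. *Tfpi* and *Plat* lay mostly in stromal cells, with 59.4% ± 0.81 of 2313 and 75.0% ± 1.70 of 4172 UMIs, and ECs held 33.1% ± 1.40 and 22.7% ± 1.59. *F3* was the reverse of *Vwf*, with 67.8% ± 2.84 of 2007 UMIs in stromal cells, 27.7% ± 3.46 in epithelial cells, and 0.295% ± 0.14 in ECs. *F8* had 175 UMIs, 113 of its 133 positive cells held a single UMI, and the share in ECs was 27.4%, 50%, and 56.5% in mice 2, 3, and 4. *Plau* had 53 UMIs in 36 cells, 25 of them in immune cells. These shares weigh each type by its number of cells and UMIs as well as by its level.

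**Figure D1:**
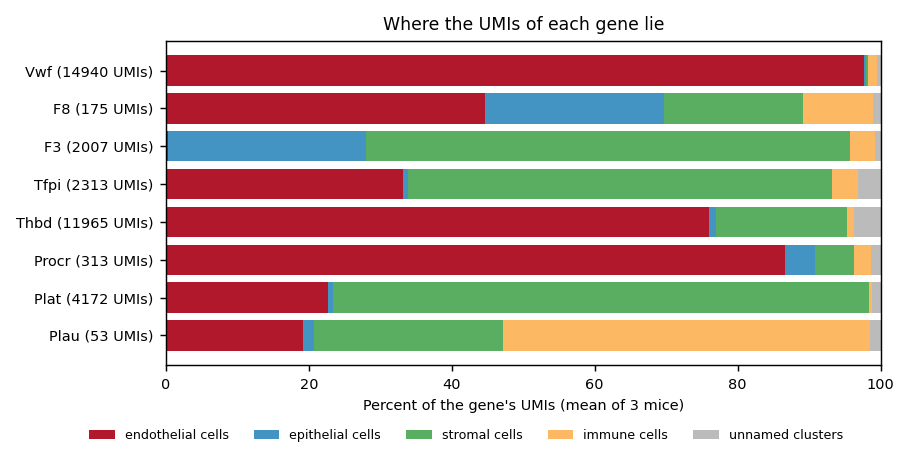
Horizontal bars give, for each gene, the percent of its UMIs (mean of 3 mice) that lay in endothelial, epithelial, stromal, and immune cells and in unnamed clusters. *Vwf* lay almost wholly in ECs (97.7%), *F3* almost wholly outside them (0.295% in ECs), and *Plat* mostly in stromal cells (75.0%).

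**Figure D2:**
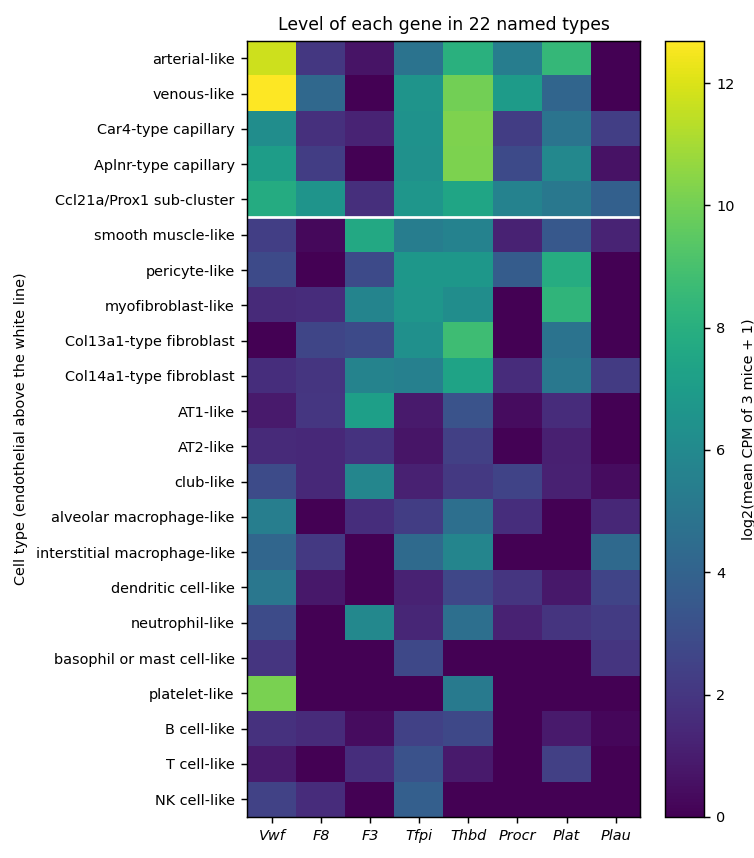
Colour gives log2(mean CPM of the 3 mice + 1) of the 8 genes (columns) in 22 named cell types (rows), with the 5 endothelial groups above the white line. *Vwf* was brightest in venous-like and arterial-like ECs, *F3* in smooth muscle-like and AT1-like cells, and *Plat* in arterial-like ECs and myofibroblast-like and pericyte-like cells.

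UMI sums per mouse and class were compared to ask which genes belong to the endothelium as a whole. Sums of *Vwf* in ECs were 1536, 1761, and 1314 CPM in mice 2, 3, and 4, above 1.30 to 3.69 CPM in epithelial cells, 1.93 to 2.67 CPM in stromal cells, and 9.01 to 22.7 CPM in immune cells. *Thbd* was at 968, 987, and 891 CPM in ECs, and its highest value in the other named classes was 138 CPM, in stromal cells of mouse 3. *Procr* was at 21.0, 36.7, and 28.7 CPM in ECs and at 1.35 CPM or less in each other named class. No mouse overlapped between ECs and another named class for these genes. *F3* showed the opposite order, with 0.875, 0.390, and 0.546 CPM in ECs against 74.6 to 81.5 CPM in stromal cells and 22.9 to 26.4 CPM in epithelial cells. These EC values rest on 6 UMIs.

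Against epithelial cells, 7 of the 7 members tested differed, 6 higher in ECs and *F3* lower, where 66.1% of all 14227 genes tested were called (edgeR quasi-likelihood test, Benjamini-Hochberg adjusted p under the threshold). Log2 fold changes ran from 1.56 ± 0.44 (SE, adjusted p = 0.00572) for *F8* to 8.86 ± 0.34 (adjusted p = 1.37e-11) for *Vwf*, and *F3* was at -5.75 ± 0.26 (adjusted p = 9.43e-11). Against immune cells, a comparison that uses the same EC sums, 7 of 7 were called, 6 higher and *F3* lower, where 69.3% of all genes were called, with *Plat* at 6.33 ± 0.28 and *F3* at -3.21 ± 0.39. *Plau* did not pass the filter on low counts in any comparison. *Procr* was so low in the other named classes that it could pass this filter only through the EC sums. The *Procr* calls as higher in ECs are therefore not independent of the filter. The *F8* call against epithelial cells was lost without mouse 4 (adjusted p = 0.147). Of the 78 *F8* UMIs in ECs that every class comparison used, 28 lay in the mixed sub-cluster of 23 cells described below.

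Stromal cells shared more of the set. Of the 7 members tested, 4 were higher in ECs and 2 lower, where 55.6% of all genes were called. *Vwf* (9.20 ± 0.35), *Procr* (4.73 ± 0.33), *Thbd* (2.82 ± 0.26), and *F8* (1.90 ± 0.45) were higher, the last with adjusted p = 0.0567 without mouse 4. Here too the *Procr* call is not independent of the filter on low counts. *F3* (-7.01 ± 0.23, adjusted p = 6.37e-12) and *Plat* (-0.97 ± 0.14, adjusted p = 3.05e-05, edgeR) were lower. *Tfpi* stood at 77.0, 85.4, and 77.9 CPM in ECs and at 76.8, 78.6, and 79.6 CPM in stromal cells, ranges that overlap (-0.08 ± 0.09, adjusted p = 0.478).

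Within the endothelium, *Vwf* was highest in venous-like and arterial-like ECs. It was at 7631, 6143, and 6117 CPM in venous-like ECs of mice 2, 3, and 4 (6630 ± 867) and at 3086, 3595, and 3582 CPM in arterial-like ECs (3421 ± 290.0). *Aplnr*-type capillary ECs held 66.2, 150.4, and 177 CPM, and *Car4*-type capillary ECs held 109.7, 102, and 7.94 CPM. The venous-like values lay above all arterial-like values, these above all capillary values, and the capillary types overlapped. Arterial-like and venous-like cells together held 92.3% ± 1.83 of all *Vwf* UMIs. After thinning each cell to 1000 UMIs, 98.3% ± 1.33 of venous-like, 82.4% ± 3.85 of arterial-like, 5.67% ± 1.24 of *Aplnr*-type, and 2.19% ± 1.85 of *Car4*-type cells had a *Vwf* UMI, against 0.262% ± 0.14 of B cell-like cells, which should lack it. Unthinned, the shares were 100%, 94.4%, 20.5%, 7.95%, and 1.09%, at median depths of 9018, 7018, 7933, 6183, and 3960 UMIs. Thinning left out 2 venous-like, 4 arterial-like, 47 *Car4*-type, and 5 B cell-like cells and no *Aplnr*-type cell.

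The median venous-like cell with *Vwf* held 63.5 of its UMIs and the median arterial-like cell with *Vwf* held 21, with at most 314 and 275 in a cell. Among capillary ECs, the *Vwf* signal was uneven between cells. In the *Car4* type 1 cell held 43.4% of the *Vwf* UMIs, and in the *Aplnr* type 40 of 89 positive cells held a single UMI. Platelets carry *Vwf* too. The 6 platelet markers, summed, ranged from 1.9 to 64 CPM over these 4 subtypes and mice, against 16988 to 40229 CPM in the platelet-like cells.

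*F8* was sparse in these subtypes. Venous-like ECs had 4.53, 9.73, and 40.5 CPM from 23 UMIs, arterial-like ECs 0, 2.03, and 7.60 CPM, *Aplnr*-type ECs 6.56, 3.05, and 2.21 CPM, and *Car4*-type ECs 2.11, 2.31, and 2.65 CPM. The venous-like values of mice 2 and 3 lay close to those of capillary cells, and mouse 4 carried the highest value.

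The clotting inhibitor *Tfpi* and the protein C pathway genes *Thbd* and *Procr* did not all follow the same order over the subtypes. *Thbd* and *Tfpi* were both lowest in arterial-like ECs among these subtypes. *Thbd* was at 1222, 1263, and 1202 CPM in *Car4*-type ECs (1229 ± 31.1), at 1192, 1221, and 1122 CPM in *Aplnr*-type ECs (1178 ± 50.5), and at 1026, 1197, and 827 CPM in venous-like ECs (1017 ± 185). These neighbours overlapped in order, while arterial-like ECs, at 270.2, 310.2, and 220.4 CPM, lay below all of them. *Procr* was instead highest in venous-like ECs, at 104, 148, and 122 CPM. Arterial-like ECs held 18.4, 42.6, and 58.9 CPM, and both capillary types 2.31 to 8.28 CPM. The 3 levels did not overlap. The arterial-like sub-clusters described below differed, at 30.8, 62.6, and 99.9 CPM in 60 cells and 14.9 ± 5.33 CPM in 104. *Tfpi* was lowest in arterial-like ECs, at 31.3, 30.4, and 20.9 CPM. Venous-like ECs held 68.0, 131, and 81.1 CPM, *Car4*-type ECs 94.9, 85.4, and 87.4 CPM, and *Aplnr*-type ECs 89.4, 81.3, and 87.2 CPM. The last 3 types overlapped each other.

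Of the plasminogen activators, *Plat* was highest within the endothelium in arterial-like ECs. Its level was 287, 341, and 437 CPM in arterial-like ECs (355 ± 76.1), 58.4, 58.9, and 61.8 CPM in *Aplnr*-type, 33.8, 23.1, and 29.1 CPM in *Car4*-type, and 6.80, 7.30, and 35.8 CPM in venous-like ECs. Arterial-like cells lay above the others in each mouse, and the *Aplnr* type lay above the *Car4* type, while the venous-like range overlapped that of the *Car4* type. *Plau* had 7 UMIs in capillary ECs and 0 in arterial-like and venous-like ECs, which allows up to 1.92 and 2.36 CPM there. *F3*, tissue factor, had 0 UMIs in 435 *Aplnr*-type and 104 venous-like ECs, which allows up to 0.671 and 2.36 CPM, and 1 in arterial-like and 2 in *Car4*-type ECs. The floors and intervals of counts cover counting error only.

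**Figure D3:**
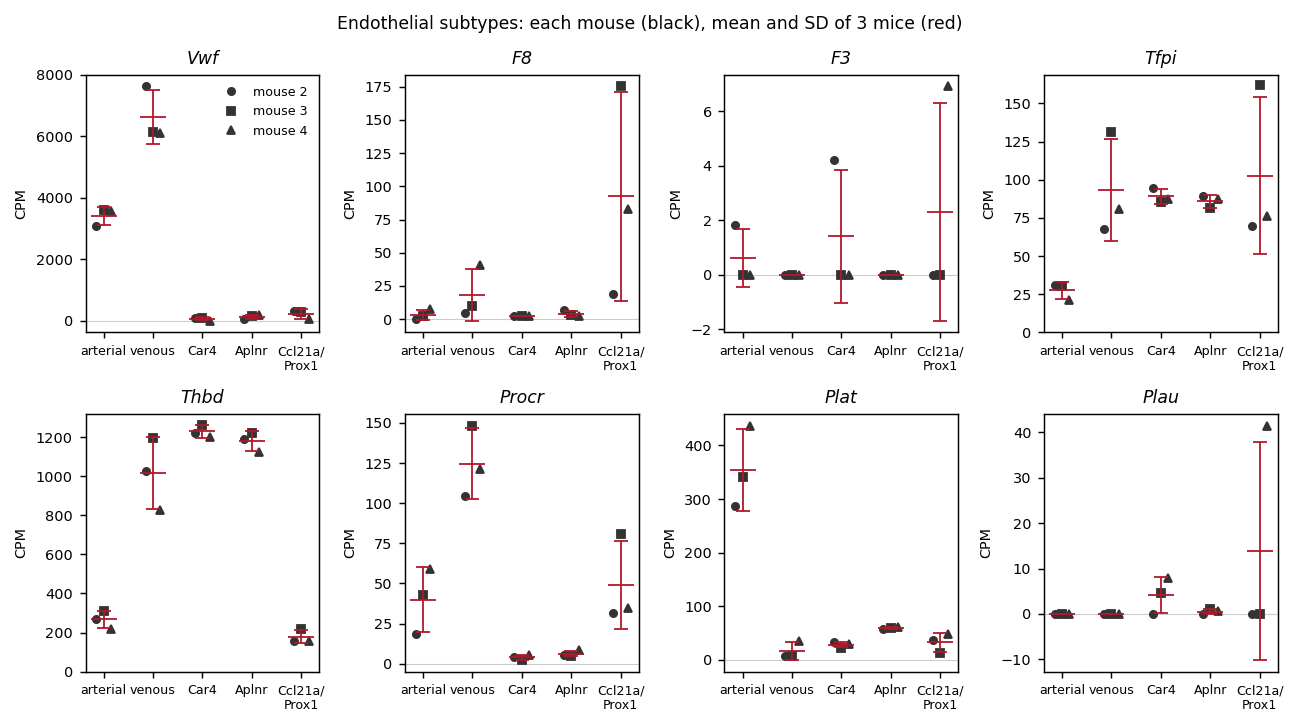
CPM of the 8 genes in arterial-like, venous-like, *Car4*-type, and *Aplnr*-type ECs and in the *Ccl21a*/*Prox1* sub-cluster, with black symbols for mice 2, 3, and 4 and red marks for the mean and SD of the 3 mice (linear axes that differ between panels). *Vwf* and *Procr* peaked in venous-like cells, *Plat* in arterial-like cells, and *Thbd* was lower in arterial-like than in the other 3 subtypes.

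Tests between subtypes used all 9095 genes that passed the filter. In arterial-like against capillary ECs, 5 of 6 members tested were called, where 27.4% of all genes were called. *Vwf* (5.16 ± 0.25, adjusted p = 1.22e-14), *Plat* (3.15 ± 0.17), and *Procr* (2.99 ± 0.38) were higher on the log2 scale, and *Thbd* (-2.12 ± 0.13) and *Tfpi* (-1.62 ± 0.22) lower. In venous-like against capillary ECs, 4 of 6 were called, where 25.6% of all genes were called. *Vwf* (6.14 ± 0.25), *Procr* (4.66 ± 0.29), and *F8* (2.57 ± 0.73, adjusted p = 0.00912, edgeR) were higher and *Plat* lower (-1.24 ± 0.39, adjusted p = 0.0185). *Plat* was no longer called without mouse 2 (-0.76, adjusted p = 0.225) or mouse 3 (-0.98, 0.168) or under a stricter cell filter (500 genes or more, 10% mitochondrial UMIs or less, 0.0562). Its fold was -2.41 without mouse 4. *F8* did not pass the filter on low counts without mouse 2 or mouse 4. The *Ccl21a*/*Prox1* sub-cluster described below gave a sum only in mouse 2 (11, 7, and 5 cells in the 3 mice). A single sum could therefore carry a gene past the filter. For *F8* the highest sum was that of venous-like cells of mouse 4 (40.5 CPM), the arm where it was called higher. Its call is thus not independent of the filter. *Procr* was at 8.28 CPM or less in the capillary sums and could pass the filter only through other EC sums. The *Procr* calls as higher than in capillary ECs, in arterial-like and in venous-like ECs, are likewise not independent of it. *Thbd* (-0.17 ± 0.11) and *Tfpi* (0.16 ± 0.17) were not called. For *Thbd* the adjusted p was 0.028 once dividing *Aplnr*-type cells were left out.

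Between arterial-like and venous-like ECs, 5 of 6 members were called, where 14.3% of all genes were called. *Plat* was higher in arterial-like ECs (4.39 ± 0.28, adjusted p = 1.02e-11, edgeR). *Thbd* (-1.95 ± 0.14), *Tfpi* (-1.77 ± 0.26), *Procr* (-1.66 ± 0.26), and *Vwf* (-0.98 ± 0.26, adjusted p = 0.0102, edgeR) were lower. *F8* did not pass (adjusted p = 0.0713). The *Vwf* call was lost without mouse 3 (adjusted p = 0.104), with DESeq2 (0.485), with sums of at least 5 cells (0.0624), and under the stricter cell filter, where the fold was -0.37 (adjusted p = 0.368). It was also lost when the 104-cell arterial-like sub-cluster described next was left out (-0.35, adjusted p = 0.418). The *Procr* call was lost under the stricter filter (-0.72, adjusted p = 0.0669). Between the capillary types only *Plat* of 6 members was called, lower in the *Car4* type (-1.03 ± 0.31, adjusted p = 0.0226, edgeR), where 15.1% of all genes were called. It was not called without mouse 3 (adjusted p = 0.187) or without the dividing *Aplnr*-type cells (0.171). *Vwf* was at -0.76 ± 0.36 (adjusted p = 0.177). It was called at -1.43 (adjusted p = 0.0180) without the low-UMI *Car4*-type sub-cluster and stood at 0.05 without mouse 4. *Thbd* was at 0.09 ± 0.12 (adjusted p = 0.736) in the same fit.

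**Figure D4:**
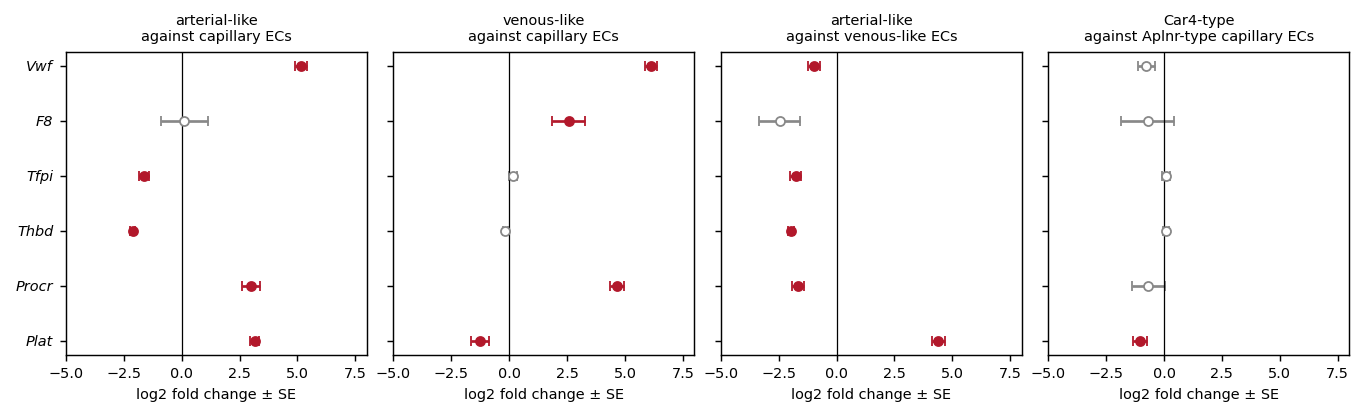
Log2 fold change ± SE (edgeR) of the 6 members tested in 4 comparisons of EC subtypes, filled red where the adjusted p passed the threshold and open grey where it did not. Against capillary ECs, *Vwf* lay at 5.16 in arterial-like and 6.14 in venous-like ECs, while *Plat* lay at 3.15 and -1.24.

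The arterial-like cells held 2 sub-clusters with unequal levels. One of 60 cells, led by *Cytl1*, *Mgp*, *Gkn3*, and *Dkk2*, had *Vwf* at 5094, 5498, and 4464 CPM and *Plat* at 487, 446, and 557 CPM. The other, of 104 cells, was led by *Atp13a3*, *Cxcl12*, and *Gja5* and had *Sftpc* and *Sftpb*, surfactant genes of AT2 cells, among its leading genes. There *Vwf* was at 1965, 1548, and 2577 CPM and *Plat* at 175, 227, and 301 CPM. Each mouse had more of both in the first sub-cluster. *Procr* followed (64.4 ± 34.6 against 14.9 ± 5.33 CPM), and *Thbd* (159.8 ± 22.8 against 361 ± 78.1 CPM) and *Tfpi* (12.1 ± 2.03 against 40.6 ± 11.2 CPM) ran the other way. The 5 AT2 markers summed to 7497, 294, and 520.3 CPM in the second sub-cluster and to 492, 239, and 393 CPM in the first.

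The *Aplnr*-type cells also divided. A sub-cluster of 263 cells had *Thbd* at 1559, 1638, and 1383 CPM, and one of 172 cells with *Cenpf* and *Mki67*, genes of dividing cells, among its leading genes had 745, 901, and 627 CPM. The ranges did not overlap. *Plat* was the other way round, at 46.6 ± 5.74 and 75.2 ± 3.31 CPM. In the *Car4* type, 95 cells had *Thbd* at 1300.1 ± 57.4 CPM, and 72 cells of low UMI content had 656 ± 40.1 CPM. The latter held 44 *Vwf* UMIs, at 495, 0, and 43.0 CPM in the 3 mice. These sub-clusters were compared by their values, with no test.

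The sub-cluster of 23 cells met the markers of lymphatic ECs as a group but was mixed. *Prox1*, the defining factor of lymphatic ECs, was found in 6 of its cells, 5 of which also held *Ccl21a*, and in mouse 3 none of 7 cells held either gene. Doublet scoring marked 9 of the 23 cells. It is therefore called the *Ccl21a*/*Prox1* sub-cluster. Its 28 *F8* UMIs gave the highest *F8* level of any named type (19.0, 175, and 83.0 CPM), but 23 of them lay in the 17 cells without either marker and 5 in the 6 marked cells. All 80 *Vwf* UMIs lay in the 17 cells without either marker. *Procr* had 16 UMIs, 6 of them in the marked cells, and *Tfpi* 34, 10 of them in the marked cells.

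Outside the endothelium, *F3* belonged to muscle and to the flat epithelium of the alveolus. Smooth muscle-like cells had 152, 224, and 220.1 CPM (199 ± 40.3), and AT1-like cells, which line the gas exchange surface, had 128, 168, and 133 CPM (143 ± 21.7). These ranges overlapped, with smooth muscle-like cells higher in each mouse, and lay above all other named types. Neutrophil-like (60.1 ± 13.3 CPM), club-like (55.6 ± 17.6 CPM), myofibroblast-like (51.3 ± 12.2 CPM), and *Col14a1*-type fibroblast cells (49.7 ± 16 CPM) followed, each overlapping the next. *Col13a1*-type fibroblasts had 16 UMIs, pericyte-like cells 3, and AT2-like cells, which secrete surfactant, 2.65 ± 0.57 CPM. By number of UMIs, smooth muscle-like cells held 40.7% ± 6.38, myofibroblast-like cells 22.5% ± 6.41, and AT1-like cells 18.5% ± 4.85 of *F3*.

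At 1000 UMIs per cell, 16% ± 2.78 of AT1-like, 15.5% ± 2.50 of smooth muscle-like, and 4.27% ± 1.32 of neutrophil-like cells had an *F3* UMI, against 0.0270% ± 0.025 of B cell-like cells. Thinning left out 30 AT1-like, 53 neutrophil-like, and 5 B cell-like cells and no smooth muscle-like cell. The unthinned shares were 56.1%, 55.2%, 7.01%, and 0.142%, at median depths of 13462, 11003, 2127, and 3960 UMIs. The neutrophil-like cells held 64 of the 70 immune *F3* UMIs, in 33 cells. In the club-like cells 1 cell held 42 of the 137 UMIs. The club-like group was uneven, with 15, 15, and 67 cells in mice 2, 3, and 4 at median UMIs of 51167, 31853, and 595. Of its 97 cells, 15 were marked as doublets. Within AT1-like cells, 129 cells had *F3* at 181, 215, and 236 CPM, and 37 cells of high UMI content had 63.9, 139, and 65.6 CPM, lower in each mouse.

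In AT1-like against AT2-like cells, *F3* was higher by 5.38 ± 0.28 on the log2 scale (adjusted p = 8.08e-19, edgeR). It was the only 1 of 5 members tested that was called, where 33.6% of all 12137 genes tested were called. *Thbd* did not pass (0.78 ± 0.55), and was called at 3.38 once doublets were removed. In AT2-like cells 15 of 1043 cells held the 83 *Thbd* UMIs, and 4 of those 15 were marked as doublets.

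**Figure D5:**
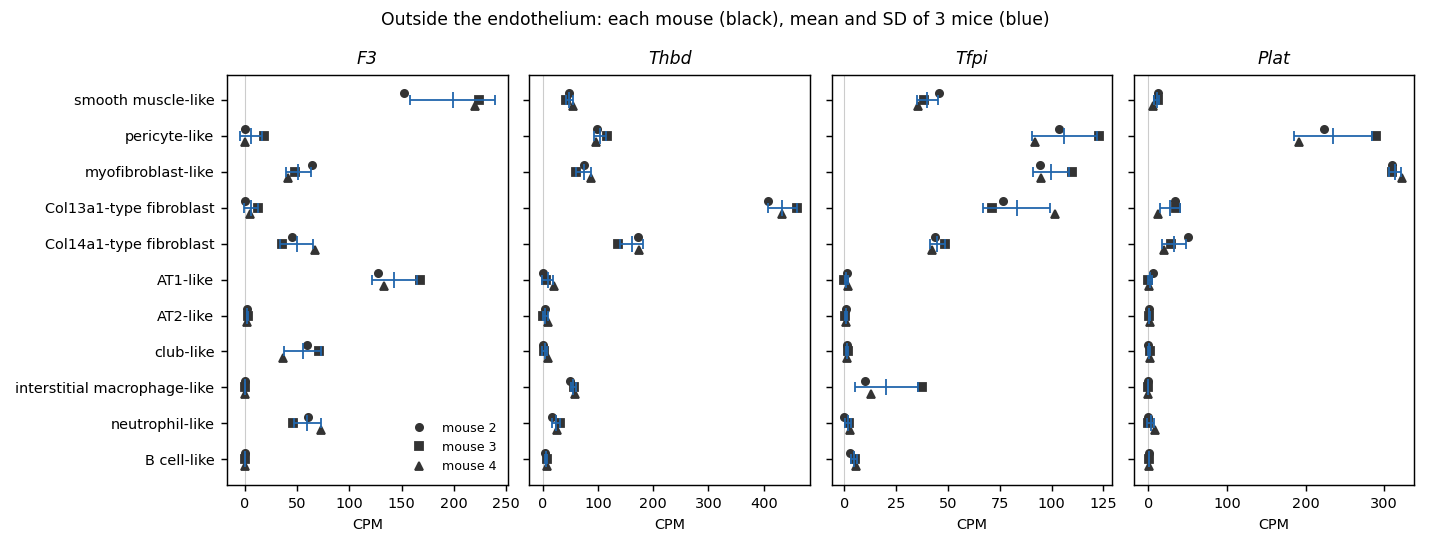
CPM of *F3*, *Thbd*, *Tfpi*, and *Plat* in 11 cell types outside the endothelium, with black symbols for mice 2, 3, and 4 and blue marks for the mean and SD. *F3* stood out in smooth muscle-like and AT1-like cells, *Thbd* in *Col13a1*-type fibroblasts (434 CPM), and *Plat* in myofibroblast-like (314 CPM) and pericyte-like cells (235 CPM).

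*Thbd* outside the endothelium was highest in *Col13a1*-type fibroblasts, at 409, 461, and 433 CPM. That lies below all capillary and venous-like values and above all arterial-like values. *Col14a1*-type fibroblasts (161 ± 21.1 CPM), pericyte-like (103 ± 11.7 CPM), myofibroblast-like (73.5 ± 14.1 CPM), interstitial macrophage-like (54.7 ± 4.84 CPM), and smooth muscle-like cells (47.9 ± 5.52 CPM) followed, against 5.84 CPM in B cell-like cells. At 1000 UMIs per cell, 33.3% ± 3.67 of the *Col13a1*-type fibroblasts, 20.9% ± 0.98 of arterial-like ECs, and 0.645% ± 0.24 of B cell-like cells had a *Thbd* UMI. Unthinned, these shares were 75.5%, 65.7%, and 2.21%, and thinning left out 32, 4, and 5 cells.

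*Tfpi* was spread over the stroma. Pericyte-like cells had 103, 123, and 92.1 CPM, myofibroblast-like cells 94.2, 109.6, and 95.1 CPM, and *Col13a1*-type fibroblasts 76.5, 71.2, and 101 CPM. These ranges overlapped those of venous-like and *Car4*-type ECs, and the first 2 types lay above the *Aplnr*-type range of 81.3 to 89.4 CPM. *Col14a1*-type fibroblasts (44.8 ± 3.47 CPM) and smooth muscle-like cells (40.0 ± 5.09 CPM) lay below these and above arterial-like ECs (27.5 ± 5.75 CPM). Epithelial cells held 18 *Tfpi* UMIs in all. B cell-like cells had 4.55 CPM.

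*Plat* was also high in 2 stromal types. Myofibroblast-like cells, the *Pdgfra*-expressing cells of the growing alveolar septum, had 309.7, 309.8, and 322 CPM and held 66.7% of all *Plat* UMIs. Pericyte-like cells had 224, 289, and 192 CPM. They held a cluster of 91 cells at 228, 320, and 211 CPM and one of 44 cells of low UMI content. The latter held 3 *Plat* UMIs, at 128, 0, and 34.2 CPM. The arterial-like range (287 to 437 CPM) overlapped those of myofibroblast-like and of all pericyte-like cells, but the arterial-like value was above the pericyte-like value in each mouse. At 1000 UMIs per cell, 26.4% ± 5.48 of arterial-like and 25.1% ± 0.69 of myofibroblast-like cells had a *Plat* UMI, against 0.102% ± 0.044 of B cell-like cells, and the unthinned shares were 73.7%, 80.6%, and 0.376%. Thinning left out 4, 0, and 5 of these cells. *Col14a1*-type (32.6 ± 15.6 CPM) and *Col13a1*-type fibroblasts (27.5 ± 12.8 CPM) and smooth muscle-like cells (10.4 ± 3.46 CPM) were lower.

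The myofibroblast-like cells held 2 clusters. The 453 cells led by *Aspn* and *Hhip* had *Plat* at 366, 404, and 412 CPM and *Thbd* at 105, 93.0, and 137 CPM. The other 352 cells had *Plat* at 228, 231, and 221 CPM and *Thbd* at 28.9, 30.7, and 30.2 CPM. Both genes were higher in the first cluster in each mouse. *Tfpi* was higher in the second, at 116, 123, and 107 CPM against 79.6, 94.0, and 84.3 CPM. *F3* overlapped, with 53.3 ± 13.1 and 50.3 ± 15.1 CPM.

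Mural cells, here the smooth muscle-like and pericyte-like cells, were set against the 3 fibroblast types by the mean of log values over types. Muscle of vessels and muscle of airways were not told apart. Of 5 members tested 2 were called, where 24.3% of all genes were called. *Thbd* was lower in mural cells (-1.38 ± 0.20, adjusted p = 3.03e-07, edgeR). *Vwf* was higher (2.61 ± 0.75, adjusted p = 0.00713), with 22 UMIs in mural cells and 20 in fibroblasts, and the *Col13a1* type at 0, so its fold is no bound. *Vwf* levels were low, at 4.17 CPM in smooth muscle-like and 6.15 CPM in pericyte-like cells and 2.15 CPM or less in the fibroblast types. B cell-like cells, which should lack *Vwf*, had 2.55 CPM. *Thbd* was the only member called without mouse 2, without mouse 3, at resolution 0.4, and with log-normalization. *F3* was not called (0.04 ± 0.93), with smooth muscle-like cells at 199 CPM and pericyte-like cells, the other mural type, at 6.15 CPM. *Plat* (-0.51 ± 0.22, adjusted p = 0.0891) and *Tfpi* (-0.23 ± 0.15) did not pass.

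Immune cells held few of these transcripts, and platelet-like cells were the exception for *Vwf*. Their level was 741, 1145, and 1455 CPM, below arterial-like ECs and above capillary ECs, but from 76 UMIs in 31 cells, 37 of them in 1 cell. Alveolar macrophage-like (42.8 ± 17.8 CPM), dendritic cell-like (32.0 ± 6.70 CPM), and interstitial macrophage-like cells (17.3 ± 13.2 CPM) followed, against 2.55 CPM in B cell-like cells. The dendritic cell-like cells held 52 *Vwf* UMIs in 36 of 184 cells, at most 3 in a cell, and none of the 36 was marked as a doublet. In macrophages against lymphocytes 2 of 5 members were called, where 32.8% of all genes were called, *Vwf* at 3.59 ± 0.62 and *Thbd* at 5.12 ± 1.03 (adjusted p = 8.03e-05, edgeR). NK cell-like cells had 0 *Thbd* UMIs, so the *Thbd* fold is no bound. *Plau* was at 0, 37.5, and 19.5 CPM in interstitial macrophage-like cells from 7 UMIs, and dendritic cell-like cells had 9 UMIs.

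The 38 further genes of the pathway fell into coagulation factors, inhibitors and regulators, fibrinolysis genes, and receptors of thrombin and related proteases. Of the 14 coagulation factors, 4 were abundant enough to test at class level, and all 4 were lower in ECs than in immune cells, where 35.3% of all genes were lower. Their highest levels were in immune types, so the filter on low counts could admit them through the immune sums. The shared direction is therefore not an independent result. *F7* and *F10*, factors of the tissue factor complex and of the step after it, peaked in alveolar macrophage-like cells (374 ± 72.0 and 216 ± 17.3 CPM). For *F10*, interstitial macrophage-like cells (162 ± 93.3 CPM) did not differ from these beyond their spread. *F5*, the cofactor of factor X, peaked in platelet-like cells (1214 ± 637 CPM), and *F13a1*, which cross-links fibrin, in interstitial macrophage-like (231 ± 121 CPM) and platelet-like cells (203 ± 238 CPM), which did not differ beyond their spread. Fibrinogen chains and prothrombin, made by the liver, had 25 UMIs or fewer each. Over the whole list, 6 of 17 genes tested were higher in ECs than in immune cells and 10 lower, against 34.0% higher and 35.3% lower of all genes. The 10 include the 4 coagulation factors.

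Within the endothelium, 11 of the 38 genes were tested. In arterial-like against capillary ECs 1 was higher and 4 lower, against 14.3% higher and 13.1% lower of all genes. The 4 were fibrinolysis genes, as were 6 of the 11 tested. *Plaur*, the urokinase receptor, was at 24.3 against 79.8 CPM (-1.23 ± 0.30, adjusted p = 0.00236, edgeR). *S100a10* (-0.52 ± 0.14), a partner of annexin A2 in binding plasminogen, and *Plgrkt* (-0.84 ± 0.22), a plasminogen receptor, were also lower. *F2rl1*, a protease-activated receptor, was at 23.3 CPM in arterial-like ECs and had 0 UMIs in both capillary types. It could pass the filter on low counts only outside the capillary arm. Its call as higher is therefore not independent of the filter, and its fold is no bound.

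In venous-like against capillary ECs 4 were higher and 3 lower, against 13.8% and 11.9% of all genes. *Serpine2*, an inhibitor of thrombin and of plasminogen activators, was at 160.3 against 4.56 CPM (5.25 ± 0.30, adjusted p = 4.88e-13, edgeR), and *Entpd1*, which breaks down ADP, at 219 against 53.1 CPM (2.27 ± 0.18). At its low capillary level, *Serpine2* could pass the filter on low counts through sums outside the capillary arm. The *Serpine2* call as higher is therefore not independent of that filter. *Anxa2* (1.12 ± 0.12) and *S100a10* (0.68 ± 0.13), the annexin A2 complex, were higher as well. *Plaur* (-1.83 ± 0.36) and *F2r* (-2.39 ± 0.35), the main thrombin receptor, were lower. In arterial-like against venous-like ECs 2 genes of this list were higher, *F2r* and *F2rl1*, and 5 lower, *Tfpi2*, *Entpd1*, *Serpine2*, *Anxa2*, and *S100a10*, against 6.58% higher and 7.73% lower of all genes. This comparison shares its fit and filter with the others, where *F2rl1* had no UMI in either capillary type. Outside the endothelium, *F2r* peaked in pericyte-like (1210.0 ± 150 CPM), *Serpine2* in myofibroblast-like (1176 ± 63.6 CPM), and *Plaur* in neutrophil-like cells (1219 ± 129 CPM).

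The genes most like each member were found by Pearson correlation of log2(mean CPM + 1) over the 22 named types, among 12347 genes. The types share libraries and unequal depth, so the values describe these libraries only. *Vwf* was closest to *Dhh* (r = 0.917), *Thbd* to *1810011O10Rik* (0.918), and *Procr* to *B3gnt3* (0.882). *Tfpi* was closest to *Cnrip1* (0.931), *Plat* to *Stc1* (0.930), *F8* to *Fam57b* (0.862), and *Plau* to *Sirpa* (0.767). Between members, the highest values were for *Tfpi* with *Plat* (0.769) and *Vwf* with *Procr* (0.732), and the lowest for *Vwf* with *F3* (-0.49).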

How the data were processed

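The lung scRNA-Seq libraries were made by 10x v3 chemistry. The labels give 16000 cells loaded, and the design text 5677 lung cells. The authors processed each library with Cell Ranger 3.0.2 (mm10) and deposited raw UMI counts, without normalization, for 9644 cells, each with at least 500 UMIs. Members and gene lists were chosen with earlier results of these data known. The genes named are the 8 members, called genes of the 38-gene list, markers and leading genes of clusters, and the closest gene to each member, apart from a few that are not reported here. Positions are from GENCODE M21. Promoter matches were sought in the 250 bases before the RefSeq start, not in the 50 after it.

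Cells under 200 genes or over 20% mitochondrial UMIs were dropped, leaving 2386, 2601, and 2655 cells of mice 2, 3, and 4, with medians of 6033.5 UMIs and 2340.5 genes. Median UMIs per kept cell were 7119, 4853, and 6453. Cells were clustered with Seurat 5.3.0 and sctransform 0.4.2 (R 4.3.3, 3000 variable genes, 30 components, resolution 0.8), ECs again with 20 components. Names came from marker lists, with rules of scoring set after clusters had been seen. Doublets were scored (50, 66, and 57 cells marked) and kept. At most 4 barcodes were shared between libraries, and chi-square per degree of freedom between libraries was 9.38 to 41.7, so none was a copy.

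Counts were summed per mouse and class, EC subtype, or type with at least 10 cells, and tested with edgeR 4.0.16 (TMM, filterByExpr, quasi-likelihood, Benjamini-Hochberg, threshold 0.05). DESeq2 1.42.0 was an alternative. On simulated data for ECs against epithelial cells, edgeR recovered 100% of genes changed 4-fold, with 11 false calls. Only genes with ample counts were changed and sums were drawn without pairing by mouse, so recovery of sparse genes was not tested. Sums of 1 mouse share the animal and are paired (r from 0.063 to 0.310 over 10029 genes in 18 pairs), so the mouse was also fitted as a block. Floors are 3 counts of the total. Other alternatives were cell filters, removal of doublets, log-normalization, resolutions of 0.4 and 1.2, members allowed in clustering, no TMM, no filter on low counts, sums of 5 cells, and leaving out each mouse. Leaving out single sub-clusters was added after the data had been seen.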

Additional observations from a re-analysis of the deposited data

Results flagged for a closer look

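Some transcripts of these genes lay in cells that no comparison used, above the limit of 3 counts of the total. Each value is a pooled level, and none was tested. A cluster of 142 dividing cells without a type of its own held *Thbd* at 202 CPM (389 UMIs in 35 cells), *Tfpi* at 31.1 CPM, *Vwf* at 18.1 CPM, and *Plat* at 8.29 CPM. An unnamed cluster of 27 cells held *Plat* at 91.2 CPM, with 108, 78.9, and 91.5 CPM in mice 2, 3, and 4, and *Vwf* at 31.7 CPM, whose 8 UMIs all came from mouse 3. A cluster of 451 cells of low UMI content, led by *Hpgd* and *Sox7*, held *Thbd* at 113 CPM, *Vwf* at 44.5 CPM, and *Tfpi* at 17.8 CPM. A cluster of 161 cells led by genes of neurons such as *Prph* and *Tubb3* held *F3* at 35.3 CPM from 12 UMIs.

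The 2002 cells left out by the filters held *Vwf* at 71.9 CPM, *Thbd* at 31.4 CPM, *Plat* at 11.7 CPM, *F3* at 7.81 CPM, *Tfpi* at 7.81 CPM, and *Procr* at 2.47 CPM, against a limit of 0.616 CPM.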

How the results depend on the processing

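The mouse as a replicate block changed no member call, including *Vwf* in arterial-like against venous-like ECs (-0.99 against -0.98). Without TMM the median of all genes moved from 0.0478 to 0.53 for ECs against epithelial cells, from -0.0239 to 0.191 against immune cells, and from -0.164 to 0.121 for AT1-like against AT2-like cells. Genes called higher and lower moved from 4786 and 4615 to 7543 and 3113, from 4833 and 5028 to 5821 and 3845, and from 1737 and 2347 to 2984 and 1162. Member calls were kept in each.

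The number of members called depended on the settings as follows. The stricter filter (at least 500 genes, at most 10% mitochondrial UMIs) gave 2 for venous-like against capillary ECs and 3 for arterial-like against venous-like ECs. For *Car4*-type against *Aplnr*-type ECs, resolution 1.2, doublets removed, log-normalization, members allowed in clustering, no filter on low counts, and leaving out the low-UMI sub-cluster each gave 2. For AT1-like against AT2-like cells doublets removed and log-normalization gave 2. For mural cells against fibroblasts resolution 0.4 and log-normalization gave 1, and no filter gave 5. Leaving out a mouse gave 2 to 3 for venous-like against capillary ECs, 0 to 2 for the capillary types, and 1 to 2 for mural cells. The cause was not tested.

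Among the folds followed, those in which every type held a UMI, only members that were not called changed sign. Without TMM *Tfpi* in ECs against stromal cells was 0.028. Log-normalization gave -0.0093 for *Thbd* and -0.054 for *Tfpi* between capillary types and 0.077 for *Plat* in mural cells, and leaving out the dividing *Aplnr*-type cells gave -0.31 for *Thbd* and -0.088 for *Tfpi*. Leaving out the high-UMI AT1-like cells gave -0.20 for *Tfpi* and -0.93 for *Plat*. In macrophages *Tfpi* was -0.63 at resolution 0.4 and -1.01 under the stricter filter. With 1 mouse left out, values ran from -0.20 to 0.41 for *Tfpi* in venous-like against capillary ECs, from -1.50 to 0.051 for *Vwf* between capillary types, from -0.73 to 1.30 for *Thbd*, -0.047 to 0.39 for *Tfpi*, and -1.17 to 1.31 for *Plat* in AT1-like against AT2-like cells, from -2.12 to 0.47 for *F3* in mural cells, and from -0.019 to 0.48 for *Tfpi* in macrophages.

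Of the other log2 fold changes under alternatives, 856 kept direction and side of the threshold, 13 lost the call, and 14 gained one. These counts leave out folds with a type without UMIs, among them the called *Vwf* in mural cells and *Thbd* in macrophages. The stricter filter left no platelet-like or alveolar macrophage-like cluster, and removal of doublets no *Ccl21a*/*Prox1* sub-cluster. *F8* and *Plau* were sparse, with 175 and 53 UMIs. *F8* in venous-like against capillary ECs fell under the filter on low counts with the stricter filter, doublets removed, log-normalization, or mouse 2 or 4 left out. Doublets removed or mouse 2 left out also took away the single *Ccl21a*/*Prox1* sum. More sums then had to reach the limit of the filter. Leaving out mouse 4 took away the highest venous-like *F8* sum.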
